A study of Mus musculus with 9 samples.

Results

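The genes of the MHC class II pathway were followed across the cells of mouse livers after active YAP, a co-activator of growth genes, had been induced in their hepatocytes. The 10 genes were chosen by name, for their known place in the pathway, out of 27998 genes in the deposited table. They are the α and β chain genes H2-Aa, H2-Ab1 and H2-Eb1, the invariant chain gene Cd74, the peptide-loading genes H2-DMa, H2-DMb1 and H2-DMb2, the genes of its inhibitor, H2-Oa and H2-Ob, and the transactivator gene Ciita. Together they held 770915 of 63286426 UMIs (barcoded counts, 1 for each transcript molecule captured) in the cells kept.

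Class II molecules present peptides from engulfed proteins to CD4+ T cells. The invariant chain blocks the groove of a new class II molecule and guides it to late endosomes, where H2-DM exchanges the last invariant chain fragment for peptide and H2-O restrains H2-DM. Dendritic cells and B cells make these genes all the time, macrophages make them to a degree set by cytokines such as interferon-gamma, and Ciita is the co-activator that turns on the pathway's promoters. C57BL/6 mice, used here, carry no functional H2-Ea gene, so H2-Eb1 has no α chain partner of its own at the surface.

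Droplet-based 3′ single-cell RNA sequencing was run on 9 libraries of collagenase-digested liver from mice on a C57BL/6 background that carried ROSA26-rtTA-IRES-EGFP. In the 2 control libraries (WT) the mice lacked the tetYAP transgene and were fed doxycycline for 7 days. The transgenic mice carried tetYAP and were fed doxycycline for 3 days in 4 libraries (YAP3d) or for 7 days in 3 libraries (YAP7d), so controls and YAP3d differ in both genotype and feeding time. By the study's methods the doxycycline-dependent activator was opened by Cre under the albumin promoter, so the transgene was driven in hepatocytes and not in the immune cells described here, and the digested cells were filtered and spun at low speed before loading. The labels do not say that the libraries are separate animals, so every p-value below measures the spread between libraries. By the study's methods all 9 whole-liver libraries came from the same generation of reagent kit.

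Of 8562 cells, 8527 with at least 200 detected genes were kept, at a median of 3190.5 to 11472 UMIs per cell in a library, and 46 barcodes occurred in more than 1 library. Cells were clustered without the 10 genes, and the 24 clusters were named from marker lists, which left 22 cells unnamed. Each class is written as "-like". Macrophage-like cells formed 2 clusters. The first (610 cells) was led by Cd5l, Clec4f and Vsig4, genes of resident Kupffer cells, and is called the Kupffer-marked cluster. The second (601 cells) was led by C1qb, C1qa, C1qc, Pf4, Cd207 and Cx3cr1. All 5 Kupffer markers looked at were raised in the first and 3 in the second, and 4 in a cluster of 443 cells led by C1qa, C1qc and C1qb in a finer clustering, so the name marks a cluster and not the only cells with such markers. Endogenous Yap1 counts do not check the transgene, whose sequence may not be in the annotation used: over all cells Yap1 stood at 11.04 to 15.65 CPM (UMI counts scaled to a common total) in WT and 1.52 to 5.53 CPM in YAP7d. In hepatocyte-like cells it stood at 77.1 and 0 CPM in WT (1 and 0 UMIs) and at 73.3, 87.2 and 147 CPM in YAP7d (15, 11 and 19 UMIs).

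Of the 10 genes, 8 lie in the class II region of chromosome 17 (RefSeq coordinates, build GRCm38.p6): H2-Oa at chr17:34092379-34095234, H2-DMa at chr17:34119693-34139101, H2-DMb2 at chr17:34143229-34151553, H2-DMb1 at chr17:34153191-34160229, H2-Ob at chr17:34238905-34245908, H2-Ab1 at chr17:34263227-34269418, H2-Aa at chr17:34282744-34287823 and H2-Eb1 at chr17:34305867-34316674. Ciita lies apart at chr16:10480014-10531064, and Cd74 on a further chromosome. Class II promoters are known for shared X and Y boxes, bound by RFX, CREB and NF-Y factors on which Ciita acts. RefSeq promoter windows matched 7 of the 10 genes. The 150 bases before the annotated start, 5′ to 3′ on the gene's strand, are printed for the 6 genes in which the letters TGATTGG (Y box) occur, since they show what genes of different roles have in common. Capitals mark TGATTGG and, where present, ATGATG on the X box side. These letters were chosen after the sequences had been seen. The H2-DMb2 window precedes a RefSeq transcript start that lies inside the span given for the gene.
H2-Aa, chr17:34287824-34287973, minus strand: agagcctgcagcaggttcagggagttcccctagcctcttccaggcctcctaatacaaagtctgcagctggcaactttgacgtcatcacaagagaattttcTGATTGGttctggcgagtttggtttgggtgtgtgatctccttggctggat
H2-Eb1, chr17:34305717-34305866, plus strand: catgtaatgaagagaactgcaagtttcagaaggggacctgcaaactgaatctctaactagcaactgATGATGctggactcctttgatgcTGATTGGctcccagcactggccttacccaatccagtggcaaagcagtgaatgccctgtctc
H2-DMb1, chr17:34153041-34153190, plus strand: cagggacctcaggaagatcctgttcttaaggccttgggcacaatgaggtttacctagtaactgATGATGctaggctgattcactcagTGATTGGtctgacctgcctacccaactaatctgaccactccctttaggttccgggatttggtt
H2-DMb2, chr17:34145099-34145248, plus strand: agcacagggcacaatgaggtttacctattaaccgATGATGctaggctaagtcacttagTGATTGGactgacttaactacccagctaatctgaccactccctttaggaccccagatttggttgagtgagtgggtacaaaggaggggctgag
H2-Oa, chr17:34092229-34092378, plus strand: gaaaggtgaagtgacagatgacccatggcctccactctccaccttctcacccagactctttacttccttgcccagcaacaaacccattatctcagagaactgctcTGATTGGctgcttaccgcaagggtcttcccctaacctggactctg
H2-Ob, chr17:34238755-34238904, plus strand: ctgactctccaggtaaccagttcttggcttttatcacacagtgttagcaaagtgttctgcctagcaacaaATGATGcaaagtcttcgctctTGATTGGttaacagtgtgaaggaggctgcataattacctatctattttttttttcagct
The Y box letters began 45 (H2-Oa) to 92 (H2-DMb2) bases before the start, whereas TGATTGG occurred on either strand in 7.82% of 32851 RefSeq promoter windows (250 bases before to 50 after a start). The shorter core ATTGG, which lies within TGATTGG, occurred in 37.4%. ATGATG occurred in 4 of the 7 matched genes (H2-Eb1, H2-DMb1, H2-DMb2 and H2-Ob), at 80 to 116 bases before the start, and on either strand in 11.2% of the 32851 windows. Neither of the 2 windows of H2-DMa held TGATTGG or ATGATG, and 1 of them held ATTGG. The windows of the paralogs H2-DMb1 and H2-DMb2 were alike at 206 of 272 aligned columns (75.7%). A match is a run of letters and not a measured binding site, and no match says only that the letters are absent from the window.

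Across cell classes the α and β chain genes and Cd74 had their highest medians in conventional dendritic-like and then B-cell-like cells, followed by plasmacytoid dendritic-like and macrophage-like cells and then monocyte-like cells, given as a description without a test. Levels below are CPM of the UMIs summed over the cells of a class in a library, for classes with at least 10 cells there. The sums are of 3′ UMIs, so levels are compared between classes for 1 gene and not between genes. For Cd74 the median over libraries was 27466 CPM in type 2 conventional dendritic-like cells (8 libraries), 27299 CPM in type 1 (4 libraries), 23483 CPM in B-cell-like cells (9 libraries), 10203 CPM in plasmacytoid dendritic-like cells (4 libraries), 9093 CPM in macrophage-like cells (9 libraries) and 3398 CPM in monocyte-like cells (6 libraries). Type 2 exceeded type 1 dendritic-like cells in 1 of 3 libraries with both, so that pair has no order. Type 1 dendritic-like cells exceeded B-cell-like cells in 4 of 4 libraries and these exceeded plasmacytoid dendritic-like cells in 4 of 4, whereas plasmacytoid dendritic-like cells exceeded macrophage-like cells in only 2 of 4. For H2-Eb1 that last pair stood the other way round, at 1895 CPM in macrophage-like and 1445 CPM in plasmacytoid dendritic-like cells, with macrophage-like cells higher in 2 of 4 libraries. These medians pool the groups and rest on different libraries, and the place of macrophage-like cells depends on the group. Their Cd74 stood at 13442 to 16143 CPM in WT, 7256 to 11687 CPM in YAP3d and 1629 to 3260 CPM in YAP7d. They were above plasmacytoid dendritic-like cells in WT replicate 2 (11875 CPM) and YAP3d replicate 4 (9596 CPM), and below them in YAP7d replicates 1 (10281 CPM) and 3 (10125 CPM). T-cell-like cells, which should lack these genes, were lowest at 104 CPM.

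H2-Aa, the α chain, and H2-Ab1, its β chain, were highest in type 1 conventional dendritic-like cells. H2-Aa had a median of 10338 CPM there, 9599 CPM in type 2, 5741 CPM in B-cell-like cells and 2847 CPM in macrophage-like cells. H2-Ab1 stood at 12562, 10429, 5014 and 2740.2 CPM in the same classes. For both genes type 1 exceeded type 2 in 3 of 3 libraries and type 2 exceeded B-cell-like cells in 8 of 8. Cd74 UMIs per H2-Aa UMI differed between classes, at 4.23 in B-cell-like, 3.28 in macrophage-like, 2.72 in type 2 and 2.55 in type 1 conventional dendritic-like cells, summed over all libraries. By library the ratio ran from 3.74 to 4.96 in B-cell-like, 2.95 to 3.71 in macrophage-like, 2.55 to 3.20 in type 2 and 2.31 to 2.89 in type 1 cells. B-cell-like cells were above macrophage-like cells in 9 of 9 libraries and macrophage-like cells above type 2 in 7 of 8.

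The β chains of the loading complex parted between B cells and the other presenting cells. H2-DMb2 had a median of 1040.2 CPM in B-cell-like cells, 223 CPM in type 2 and 126 CPM in type 1 conventional dendritic-like cells, and 11.9 CPM in macrophage-like cells, and B-cell-like cells exceeded type 2 dendritic-like cells in 8 of 8 libraries. H2-DMb1 was highest in conventional dendritic-like cells and lowest in B-cell-like cells of these classes, at 998 CPM in type 1 and 853 CPM in type 2 conventional dendritic-like cells, 322 CPM in macrophage-like cells and 138 CPM in B-cell-like cells. For every 100 H2-DMb1 UMIs there were 827 H2-DMb2 UMIs in B-cell-like cells, 31.7 in type 2 and 13.1 in type 1 conventional dendritic-like cells and 7.07 in macrophage-like cells. The lowest library stood at 487 in B-cell-like cells and the highest at 66.1 in the other 3 classes. The 2 genes are close paralogs, and reads that fit both could have been lost or split in the counting, which was not tested. H2-DMa, the α chain that pairs with both, was highest in type 1 conventional dendritic-like cells (1109.7 CPM) and lay at 585 CPM in B-cell-like and 359.7 CPM in macrophage-like cells.

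The inhibitor genes were read in B-cell-like and dendritic-like cells and hardly elsewhere. H2-Ob, the β chain, had a median of 486 CPM in B-cell-like cells, 154 CPM in type 1 and 102 CPM in type 2 conventional dendritic-like cells, and 16.7 CPM in plasmacytoid dendritic-like cells. H2-Oa, the α chain, stood at 241 CPM in B-cell-like, 191 CPM in plasmacytoid dendritic-like, 180.4 CPM in type 2 and 173 CPM in type 1 conventional dendritic-like cells, and at 14.3 CPM or less in every other class. H2-Oa in B-cell-like cells exceeded that in plasmacytoid dendritic-like cells in 3 of 4 libraries, and the 3 dendritic-like classes had no order beyond their spread. Ciita was read at 82.6 CPM in type 1 and 66.4 CPM in type 2 conventional dendritic-like cells, 59.9 CPM in B-cell-like, 19.7 CPM in plasmacytoid dendritic-like and 9.79 CPM in macrophage-like cells. Type 2 dendritic-like cells exceeded B-cell-like cells in Ciita in 7 of 8 libraries.

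**Figure D1:**
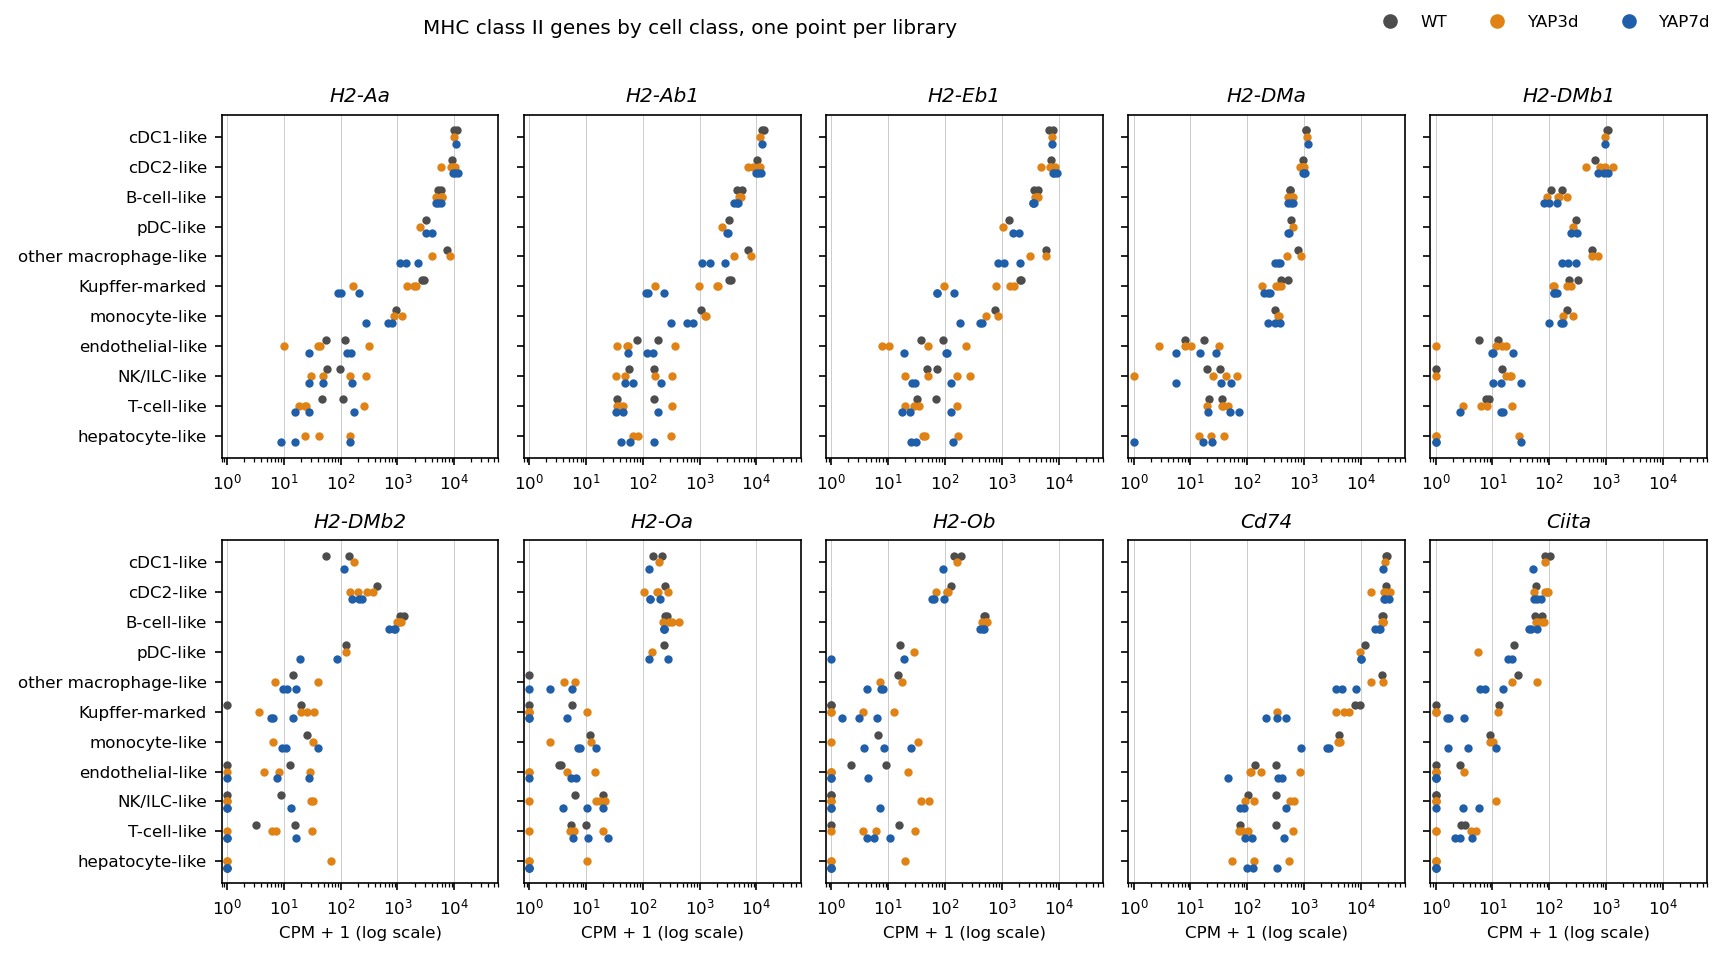
Level of each of the 10 genes (CPM + 1, log axis) in the cell classes, 1 point per library with at least 10 cells of the class, coloured by group. H2-DMb2 and H2-Ob are highest in B-cell-like cells, H2-DMb1 in conventional dendritic-like cells, and the YAP7d points of Cd74, H2-Aa, H2-Ab1 and H2-Eb1 lie far to the left in the Kupffer-marked cluster.

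In classes that should lack the genes, their level followed the library. T-cell-like cells of WT replicate 2, YAP3d replicate 4 and YAP7d replicate 3 held Cd74 at 326, 650.3 and 451 CPM, and those of the other 6 libraries at 71.1 to 119 CPM. The same 3 libraries had the highest H2-Aa in T-cell-like cells, at 107, 260 and 169 CPM against 14.8 to 45.5 CPM. These 3 have the most cells of their groups (1417, 2554 and 1834 before the filter). A CPM near that of T-cell-like cells of the same library is therefore read as possible background. CPM take no account of the differing depth of the classes.

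In the Kupffer-marked cluster, Cd74 and the α and β chain genes fell after 7 days of YAP, in YAP7d replicate 3 to CPM near those of T-cell-like cells. Cd74 stood at 8097 and 9836 CPM in WT, at 4986, 340.0, 3711 and 6165 CPM in YAP3d replicates 1 to 4, and at 212, 339 and 474 CPM in YAP7d. All 3 YAP7d libraries were below both WT libraries, and YAP3d replicate 2 alone among the YAP3d libraries lay in the YAP7d range. H2-Aa stood at 2677 and 2958 CPM in WT, at 2110.1, 166, 1446 and 1992 CPM in YAP3d, and at 89.7, 101 and 210.4 CPM in YAP7d, with the same replicate of YAP3d low.

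H2-Ab1 stood at 3301 and 3513 CPM in WT, at 2035, 166, 976 and 2114 CPM in YAP3d and at 125, 113 and 235 CPM in YAP7d. H2-Eb1 stood at 2119 and 2165.9 CPM in WT, at 1625, 96.0, 807 and 1378 CPM in YAP3d and at 70.5, 71.3 and 145 CPM in YAP7d. WT and YAP7d did not overlap for either gene, nor for the loading genes H2-DMa and H2-DMb1, whose difference was smaller. The share of all genes without overlap is not given here, above or below, so separation alone is not read as a change. H2-DMb2, at 0 and 19.0 CPM in WT and 5.48, 4.93 and 13.7 CPM in YAP7d, overlapped. H2-DMa stood at 389.9 and 524 CPM in WT, at 317, 179, 398 and 342 CPM in YAP3d and at 228, 254 and 196 CPM in YAP7d. H2-DMb1 stood at 221 and 323 CPM in WT, at 243, 117, 120.5 and 206 CPM in YAP3d and at 119, 137 and 120.1 CPM in YAP7d. YAP3d lay across the range of both other groups for these genes.

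Against WT, 4 of the 7 genes that could be tested in the Kupffer-marked cluster fell in YAP7d, where 1.06% of all 6012 genes tested fell (edgeR's quasi-likelihood test on summed counts, Benjamini-Hochberg adjusted p under 0.05). Cd74 was lower by 26.5-fold (log2 change -4.73, SE 0.71), H2-Aa by 21.1-fold (-4.40, SE 0.66), H2-Ab1 by 21.7-fold (-4.44, SE 0.66) and H2-Eb1 by 22.4-fold (-4.49, SE 0.68), each at an edgeR adjusted p of 0.00274. H2-DMa (-1.09, SE 0.31, edgeR adjusted p = 0.0796) and H2-DMb1 (-1.20, SE 0.32, edgeR adjusted p = 0.0621) did not pass, nor did H2-DMb2. H2-DMa and H2-DMb1 passed without YAP3d replicate 2 (edgeR adjusted p = 0.00838 and 0.0113), without YAP3d replicate 4 (0.0365 and 0.0218), with the compared groups alone (0.0272 and 0.0219) and by DESeq2 (0.0399 and 0.0230). Without WT replicate 2 their log2 changes were -0.75 and -0.77 (edgeR adjusted p = 0.558 and 0.578). The median log2 change of the 7 genes, those that passed the filter on low counts, was -4.40, beside 0.016 over all genes tested. H2-DMb2, H2-Oa, H2-Ob and Ciita had at most 45 UMIs in any library of this cluster, and for Ciita WT held 0 and 5 UMIs, so their levels are not read as changes.

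At 3 days no gene of the 6012 passed against WT. Unadjusted edgeR p was under 0.05 for 4 members and for 251 of the 6012 genes, and DESeq2 called 0 members. With no filter on low counts 2 members passed, H2-Ab1 (log2 change -1.46, edgeR adjusted p = 0.00330) and Cd74 (-1.33, edgeR adjusted p = 0.00663). The share of all genes that passed without the filter is not given. Between 7 and 3 days the same 4 genes were lower in YAP7d, where 0.499% of all genes were lower, by 10.9-fold for Cd74 (log2 change -3.44, SE 0.63, edgeR adjusted p = 0.0152), 10.2-fold for H2-Aa, 9.61-fold for H2-Eb1 and 8.05-fold for H2-Ab1. This call was lost with single libraries or settings, at changes of like size. Leaving out YAP3d replicate 1, YAP3d replicate 3 or YAP7d replicate 2 left 0 members called, with log2 changes of Cd74 of -3.31, -3.46 and -3.41 (edgeR adjusted p = 0.0822, 0.0830 and 0.102), and leaving out YAP7d replicate 1 left 2. The filter on cells (Cd74 -3.38, edgeR adjusted p = 0.0734), a floor of 20 cells (-3.31, 0.0822), which drops YAP3d replicate 1, and a term for Gm10709, a transcript described next (-2.82, 0.104), also left 0. Without YAP3d replicate 2, the low library, the log2 change of Cd74 was -3.83 (edgeR adjusted p = 9.90e-07).

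A second library property moved with the groups. The transcript Gm10709 stood at 347 to 611 CPM in YAP3d replicates 1 and 2 and in all 3 YAP7d libraries, and at 3.65 to 11.2 CPM in both WT libraries and YAP3d replicates 3 and 4. With a term for it in the fit, 0 of the 7 genes were called in the Kupffer-marked cluster between YAP7d and WT, with a log2 change of Cd74 of -3.69 (edgeR adjusted p = 0.331), and H2-DMb2 turned from -0.82 to 1.90 (edgeR adjusted p = 0.995). Within YAP3d, Cd74 in this cluster was 4986 and 340.0 CPM in the libraries with Gm10709 and 3711 and 6165 CPM in those without. What the property stands for was not tested, and no library of WT has it and none of YAP7d lacks it.

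**Figure D2:**
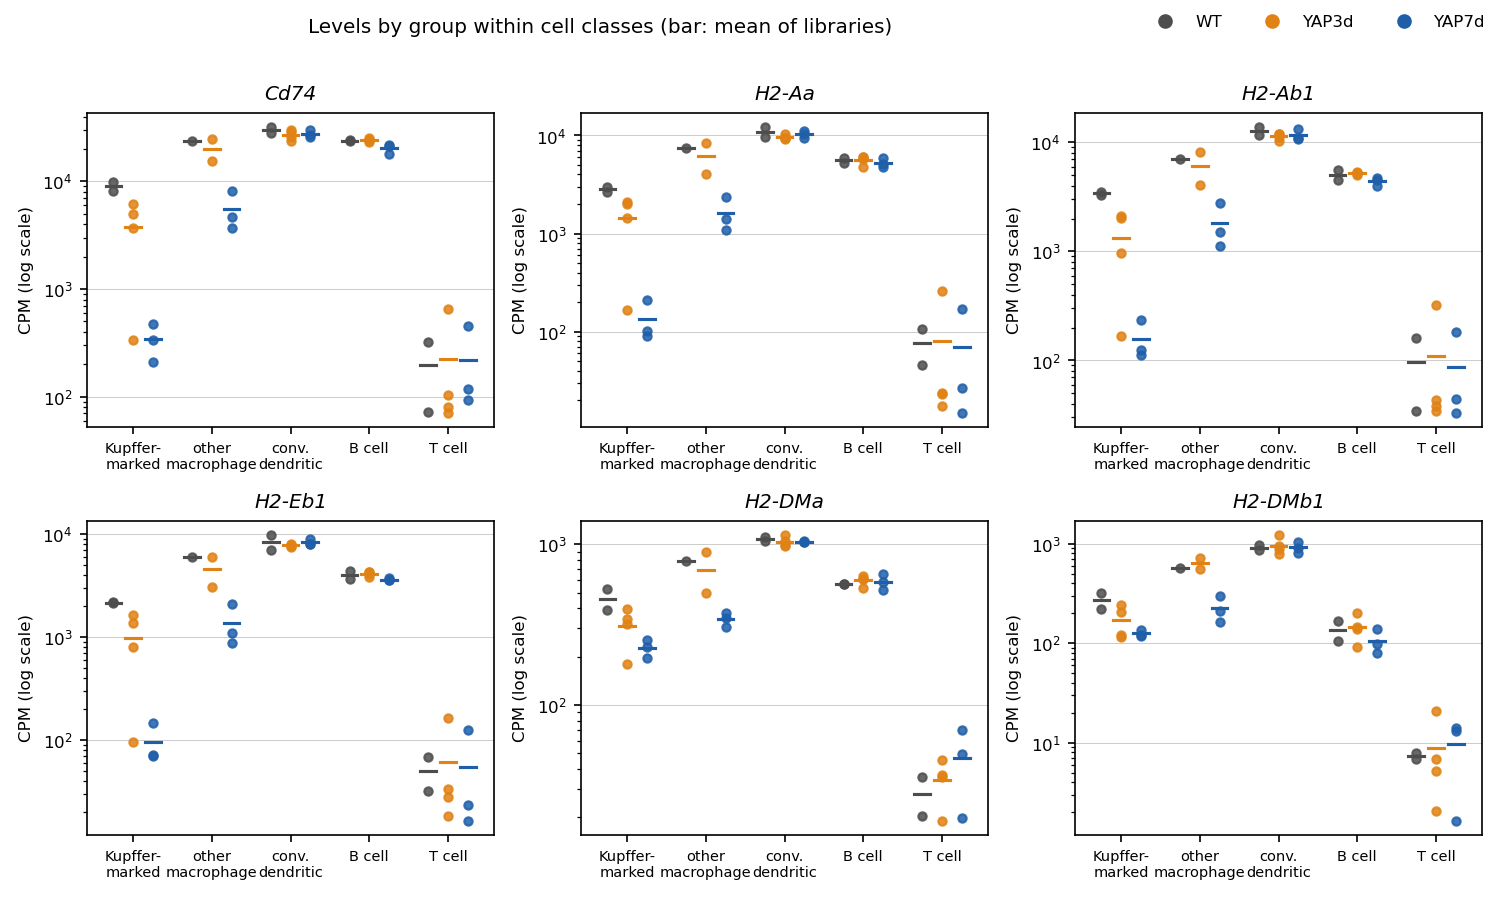
Level of 6 genes (CPM, log axis) by group in 5 cell classes, 1 point per library and a bar at the mean. In the Kupffer-marked cluster Cd74 is at 8097 and 9836 CPM in WT and at 212 to 474 CPM in YAP7d, while the groups overlap in conventional dendritic-like cells.

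Set against T-cell-like cells of the same library, the Kupffer-marked cluster fell towards their Cd74 CPM in YAP7d. Its Cd74 level was 111 and 30.2 times that of T-cell-like cells in WT, 70.2, 4.27, 35.6 and 9.48 times in YAP3d, and 2.30, 2.84 and 1.05 times in YAP7d. For H2-Aa the ratios were 58.9 and 27.6 in WT, 89.1, 9.59, 63.1 and 7.67 in YAP3d, and 6.04, 3.81 and 1.24 in YAP7d. For Cd74, H2-Aa and H2-Ab1 (2.80, 3.41 and 1.29 times in YAP7d) each YAP7d library was below every WT and YAP3d library. For H2-Eb1 YAP7d replicate 1 at 4.28 times was above YAP3d replicate 2 at 3.47 times, and for H2-DMa YAP7d replicate 1 was above all of YAP3d (7.48 to 11.2 times), while every YAP7d library was below both of WT for both genes. H2-DMb1 stayed above T-cell-like cells, at 72.2, 10.3 and 8.48 times their level in YAP7d beside 32.4 and 41.2 times in WT, over 1, 4 and 24 H2-DMb1 UMIs in T-cell-like cells of YAP7d and 3 and 13 of WT. The ratios compare shares of UMIs and not UMIs per cell, and the classes differ in depth. In YAP7d replicate 3, 235 T-cell-like cells held 764 Cd74 UMIs among 1693732 in all. There, 142 cells of a finer Kupffer-marked cluster, described next, held 1435 Cd74 UMIs among 3272958. A low ratio therefore does not show how much of the signal was background. The fold changes above were not corrected for background.

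In a finer clustering 2 clusters raised all 5 Kupffer markers, and the groups filled them unequally. They held 129 and 472 cells, beside 610 in the Kupffer-marked cluster, so they do not hold all of its cells. The first, led by Clec4f, Vsig4 and Fcna, held 9 and 49 WT cells, 3, 0, 7 and 61 YAP3d cells and 0 cells of each YAP7d library. The second, led by Cd5l, Clec4f and Fabp7, held 19 and 7 WT cells, 8, 39, 15 and 8 YAP3d cells and 93, 141 and 142 YAP7d cells. Of the cells in these 2 clusters, 49 of WT replicate 2 therefore sit apart from all those of YAP7d. Within the second alone, Cd74 stood at 8974 and 8945 CPM in WT, at 7905, 339, 1813 and 6794 CPM in YAP3d and at 183, 339 and 438 CPM in YAP7d. H2-Aa stood there at 3136 and 1993 CPM in WT and at 69.4, 101 and 198 CPM in YAP7d. WT and YAP7d did not overlap within this cluster either, over few WT cells, and these values were taken after seeing the data and have no test.

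Single cells of the Kupffer-marked cluster also held fewer class II UMIs in YAP7d. Each cell was thinned to 1000 UMIs, and the UMIs of Cd74, H2-Aa, H2-Ab1 and H2-Eb1 were summed. The median cell of the Kupffer-marked cluster held 9.5 and 12 of these UMIs in WT, 0, 5 and 10 in YAP3d replicates 2, 3 and 4, and 0, 0 and 1 in YAP7d. Cells with none of them made up 0% and 3.51% in WT, 55.0%, 19.0% and 1.45% in YAP3d, and 70.2%, 72.5% and 39.6% in YAP7d. Cells with more than 10 made up 37.5% and 59.6% in WT and 1.06%, 0.704% and 1.39% in YAP7d. YAP3d replicate 1 had too few cells deep enough to enter. Cells of 1 library are not replicates, and these shares carry counting error only.

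The share of thinned cells with at least 1 Cd74 UMI in the cluster was 100% and 91.2% in WT, 25%, 76.2% and 95.7% in YAP3d replicates 2 to 4, and 14.9%, 21.1% and 36.1% in YAP7d. YAP7d was below WT in every library (exact two-sided permutation p = 0.1, the smallest that 3 libraries against 2 can give). T-cell-like cells, thinned alike, had shares of 8.25% and 24.9% in WT and of 4.12%, 6.78% and 30.2% in YAP7d. Thinning takes away more UMIs from a deeper cell, so these shares do not place both classes against a common background. Median depths before thinning were 2079.5 to 23127 UMIs per cell in the cluster and 4337 to 5939 UMIs in T-cell-like cells. Without thinning the Kupffer-marked shares were 96.6% and 100% in WT and 75.5%, 72.5% and 100% in YAP7d.

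**Figure D3:**
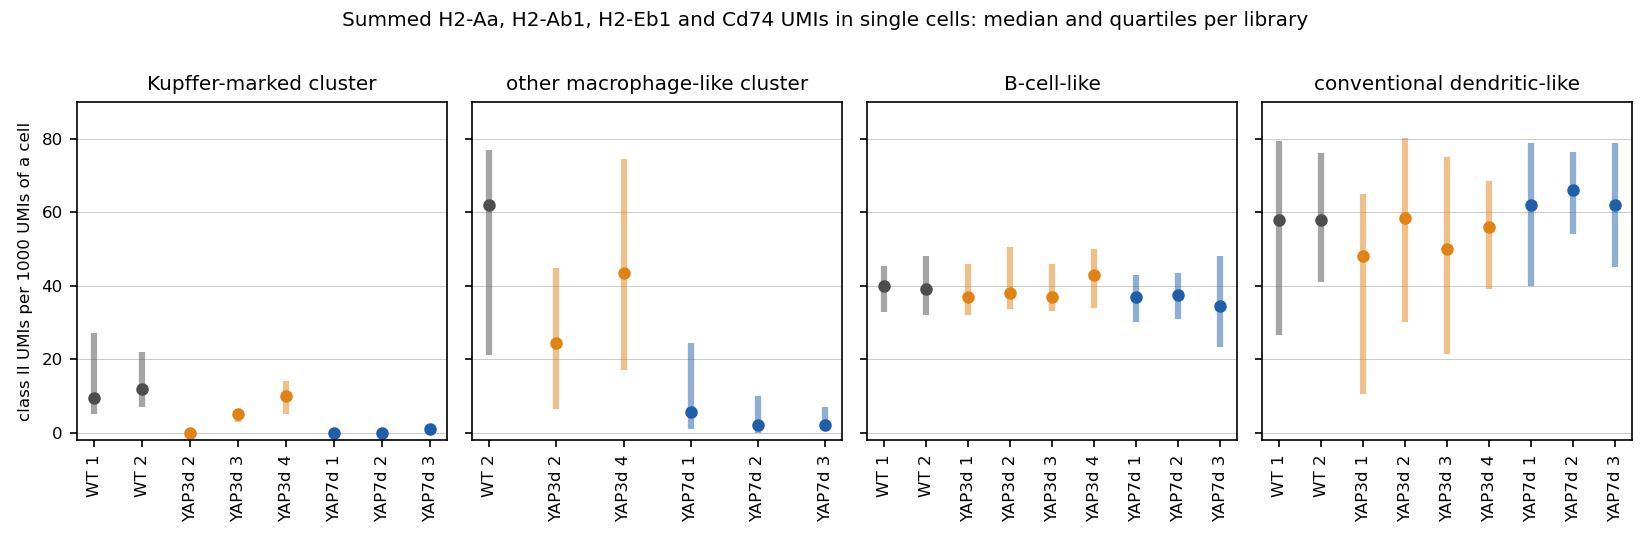
Summed UMIs of Cd74, H2-Aa, H2-Ab1 and H2-Eb1 per 1000 UMIs of a cell, with the median as a point and the quartiles as a bar for each library. Medians in the Kupffer-marked cluster are 9.5 and 12 in WT and 0 to 1 in YAP7d, whereas B-cell-like and conventional dendritic-like medians are above 34 in every library.

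The other macrophage-like cluster held more class II RNA and was also lower at 7 days, without passing the test. Only WT replicate 2, YAP3d replicates 2 and 4 and the 3 YAP7d libraries had 10 or more of these cells, so no test against WT was run. Cd74 stood at 23819 CPM in WT, at 15339.7 and 24689 CPM in YAP3d and at 8138, 4658 and 3677 CPM in YAP7d. H2-Aa stood at 7467 CPM in WT, at 4044 and 8307 CPM in YAP3d and at 2345, 1394 and 1093 CPM in YAP7d. YAP7d lay below YAP3d in every library for both genes.

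Ciita reached 27.3 CPM in the WT library, 21.2 and 60.7 CPM in YAP3d and 14.2, 5.15 and 6.39 CPM in YAP7d, from 4 to 49 UMIs a library. Between YAP7d and YAP3d, 0 of 8 genes tested were called by edgeR, where 0.0273% of 7339 genes were called. The unadjusted edgeR p was under 0.05 for 7 members, beside 687 of the 7339 genes. DESeq2 called 5, and its share of all genes is not given. The edgeR log2 changes were -1.87 for Cd74 (SE 0.36, adjusted p = 0.0695), -1.95 for H2-Aa (SE 0.38, adjusted p = 0.0695), -1.50 for H2-DMb1 (SE 0.29, adjusted p = 0.0695) and -2.18 for Ciita (SE 0.65, adjusted p = 0.257). The median thinned cell held 62 of the 4 summed UMIs in WT replicate 2, 24.5 and 43.5 in YAP3d, and 5.5, 2 and 2 in YAP7d.

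Taking all macrophage-like cells together mixes the 2 clusters, whose proportion differs between libraries. The share of macrophage-like cells that sat in the Kupffer-marked cluster was 85.3% and 77.0% in WT, 60.6% to 82.8% in YAP3d and 58.0%, 67.3% and 27.1% in YAP7d. In the mixture 6 of 7 genes tested were lower in YAP7d than in WT, where 0.822% of 6936 genes were lower. The edgeR log2 changes ran from -2.57 (Cd74) to -2.75 (H2-Ab1) for the α and β chain genes and Cd74 (adjusted p = 0.00116 each), and were -1.25 for H2-DMa (SE 0.26, adjusted p = 0.0290) and -1.30 for H2-DMb1 (SE 0.28, adjusted p = 0.0364). The calls of H2-DMa and H2-DMb1 were lost, leaving 4, without either WT library, without YAP3d replicate 1 or without any 1 of the YAP7d libraries, at log2 changes of -1.33 to -1.13 and -1.40 to -1.26 over all libraries left out in turn. With the Gm10709 term 0 of 7 were called, at a log2 change of -2.17 for Cd74 (edgeR adjusted p = 0.309). At 3 days 0 members passed against WT where 0% of genes did, and DESeq2 called 0. Of the members, 5 had an unadjusted edgeR p under 0.05, as did 280 of the 6936 genes. Between YAP7d and YAP3d, 4 were lower beside 0.202% of all genes, and leaving out any of 6 libraries (WT replicate 2, YAP3d replicate 1, 3 or 4, or YAP7d replicate 2 or 3) left 2.

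In conventional dendritic-like cells the α and β chain genes and Cd74 stayed within the spread between libraries. Cd74 stood at 31793 and 28009 CPM in WT, at 23608, 28783, 29887 and 25881 CPM in YAP3d and at 27021, 30054 and 25688 CPM in YAP7d, and all groups overlapped. The log2 change between YAP7d and WT was -0.18 for Cd74 (SE 0.16) and -0.13 for H2-Aa (SE 0.18). None of the 10 genes passed, where 0% of 4005 genes tested did by edgeR's test, and DESeq2 called 0. Unadjusted edgeR p was under 0.05 for 325 of the 4005 genes, among them 2 members.

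Those 2 were the inhibitor genes. H2-Ob stood at 204 and 138 CPM in WT, at 124, 73.3, 104 and 137 CPM in YAP3d and at 71.2, 75.8 and 69.0 CPM in YAP7d, with a log2 change of -1.27 from WT to YAP7d (SE 0.31, edgeR adjusted p = 0.177). H2-Oa stood at 378 and 189 CPM in WT, at 179, 97.7, 224 and 186 CPM in YAP3d and at 127, 108 and 177 CPM in YAP7d (log2 change -0.98, SE 0.38, edgeR adjusted p = 0.475). Every YAP7d library lay below both WT libraries for both genes, and neither change passed the adjusted test. Type 1 cells made up 68.8% and 44.6% of these dendritic-like cells in WT and 12.2%, 36.8% and 27.7% in YAP7d, and the part of this mixture in the H2-Ob and H2-Oa values was not tested. Ciita stood at 99.1 and 71.9 CPM in WT, at 67.8 to 115 CPM in YAP3d and at 72.9, 70.4 and 52.1 CPM in YAP7d, with overlap of all groups.

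In B-cell-like cells, too, no change of a member passed. Cd74 stood at 24262 and 23483 CPM in WT, at 23448 to 25071 CPM in YAP3d and at 21395, 21967 and 17867 CPM in YAP7d, with a log2 change from WT to YAP7d of -0.21 (SE 0.11). The 3 YAP7d libraries were lowest, but the change did not pass. H2-DMb2, the β chain that marks this class, stood at 1279 and 1103 CPM in WT, at 992 to 1131 CPM in YAP3d and at 895, 852 and 701 CPM in YAP7d (log2 change -0.53, SE 0.20, edgeR adjusted p = 0.775). Of 9 members tested 0 were called, where 0.0444% of 2251 genes were, and DESeq2 called 0. The unadjusted edgeR p was under 0.05 for 1 member and for 104 of the 2251 genes. H2-Oa stood at 241 and 269 CPM in WT and 232 to 239 CPM in YAP7d, and H2-Ob at 507 and 486 CPM in WT and 419 to 478 CPM in YAP7d. Thinned single cells had a median of 34.5 to 43 summed class II UMIs in B-cell-like cells and of 48 to 66 in conventional dendritic-like cells over all 9 libraries.

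**Figure D4:**
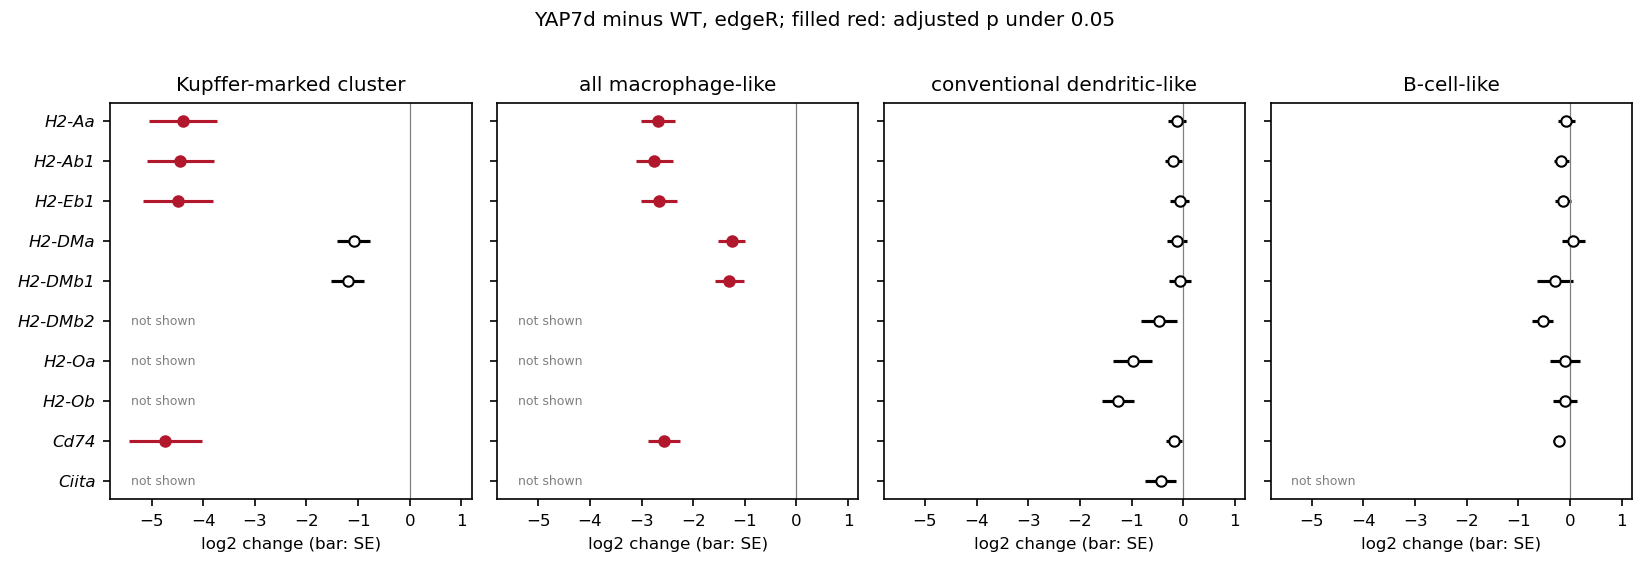
Log2 change from WT to YAP7d of each gene by edgeR (bar: SE) in 4 cell classes, filled red where the adjusted p is under 0.05. Cd74, H2-Aa, H2-Ab1 and H2-Eb1 lie between -4.73 and -4.40 in the Kupffer-marked cluster and between -0.21 and -0.072 in B-cell-like cells.

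That macrophage-like cells changed more than the other classes did not pass its own test over all genes. The change of H2-Ab1 from WT to YAP7d in macrophage-like cells minus that in B-cell-like cells of the same library was -2.63 on the log2 scale (SE 0.47, limma unadjusted p = 0.000176, adjusted p = 0.173), for H2-Aa -2.66 (adjusted p = 0.173) and for Cd74 -2.41 (adjusted p = 0.194). The same difference against conventional dendritic-like cells was -2.45 for Cd74 (limma adjusted p = 0.449). None of the 2144 genes compared with B-cell-like cells passed, so no difference between classes is claimed. The macrophage-like cells of this test mix both clusters, and the Kupffer-marked cluster was not compared on its own.

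In monocyte-like cells, tested only between YAP7d and YAP3d, 0 of 8 genes passed where 0% of 6919 genes did. In these cells 4 members had an unadjusted edgeR p under 0.05, as did 285 of the 6919 genes. Their Cd74 stood at 4112 CPM in WT replicate 2, at 3988 and 4307 CPM in YAP3d replicates 2 and 4 and at 2808, 2529 and 907 CPM in YAP7d, all 3 below the rest. Endothelial-like cells, among which liver sinusoidal cells can present antigen, held Cd74 at 135 and 325 CPM in WT, at 111 to 857 CPM in YAP3d and at 45.2, 410.4 and 347 CPM in YAP7d. T-cell-like cells held 71.1 to 650.3 CPM, and the ranges of both classes overlap, although in YAP7d replicate 2 Cd74 stood at 410.4 CPM in endothelial-like against 119 CPM in T-cell-like cells. Of the endothelial-like cells of YAP7d, 17 of 24, 17 of 23 and 59 of 64 sat in a cluster that held 0 of 276 and 0 of 502 in WT, so the groups are compared across different clusters. Of 6 members tested there 0 were called between YAP7d and WT although 18.4% of 7465 genes were, and DESeq2 called 0. An unadjusted edgeR p under 0.05 was reached by 0 members and by 2338 of the 7465 genes. In T-cell-like cells 0 of 6 were called (0% of 6530 genes), and in NK or innate lymphoid-like cells 0 of 5 (7.89% of 4029 genes). In either class 0 members had an unadjusted edgeR p under 0.05 and DESeq2 called 0. Of all genes, 558 in T-cell-like and 936 in NK or innate lymphoid-like cells had such a p.

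Other genes of the pathway were listed by role, and 27 of 36 could be tested in the Kupffer-marked cluster. Between YAP7d and WT, where 31 of 6012 genes were higher and 64 lower, Ifi30 rose. It encodes a lysosomal thiol reductase that unfolds proteins for class II loading. Its level was 598 and 501 CPM in WT, 654, 522, 675 and 481 CPM in YAP3d and 1239, 1466 and 1471 CPM in YAP7d (log2 change 1.32, edgeR adjusted p = 0.0241), so all 3 YAP7d libraries were above the other 6. Of the 6 class II transcription factors tested and the 4 costimulation genes tested, 0 passed, with median log2 changes of 0.023 and -0.71. In conventional dendritic-like cells 0 of 23 pathway genes passed and in B-cell-like cells 0 of 19.

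In endothelial-like cells 3 of 23 pathway genes tested were higher and 6 lower in YAP7d than in WT, beside 718 higher and 652 lower of 7465 genes, and across the different clusters given above. Ifi30 (log2 change 2.46, SE 0.46, edgeR adjusted p = 0.00151) and the transcription factor genes Spi1 (log2 change 1.91) and Irf8 (edgeR adjusted p = 0.000320) were higher. The lysosomal protease genes Ctsl (-0.70) and Lgmn (-0.51), the NF-Y subunit gene Nfya (-1.66) and 3 genes of the interferon-gamma route to Ciita, Irf1 (-1.13), Socs1 (-1.20) and Jak1 (-0.73), were lower. In the same sums the endothelial markers stood at 19751 and 21872 CPM in WT and at 10251, 9686 and 9637 CPM in YAP7d, and the macrophage markers at 227 and 448 CPM in WT and 388, 433 and 849 CPM in YAP7d. The part of this shift in the 9 changes was not tested.

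Markers of other cells in the Kupffer-marked cluster also differed between groups. Its summed macrophage markers were 30010 and 35613 CPM in WT and 24460 to 29001 CPM in YAP7d, and its summed monocyte markers 793 and 1153 CPM in WT and 1571 to 2427 CPM in YAP7d. Summed B cell markers were 259.9 and 292 CPM in WT and 138 to 158 CPM in YAP7d, and those of type 2 conventional dendritic cells 26.0 and 66.4 CPM in WT and 17.5 to 30.4 CPM in YAP7d. The part of such admixed RNA in the fall of Cd74 was not tested.

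Over all cells of a library the difference in Cd74 between YAP7d and WT was within the spread between libraries (log2 change -0.28, SE 0.28, edgeR adjusted p = 0.4999). Cd74 stood at 5526 and 6826 CPM in WT, at 6463, 6141, 6353 and 9132 CPM in YAP3d and at 5185, 3472 and 4842 CPM in YAP7d. From sums over all cells, fewer cells of a class and less RNA per cell cannot be told apart. None of the 10 genes passed between YAP7d and WT, where 18.1% of 12071 genes did. An unadjusted edgeR p under 0.05 was found for 3 of them, beside 4299 of the 12071 genes. DESeq2 called 2, and its share of all genes is not given. Between YAP7d and YAP3d, where 9.83% of genes were lower, 2 passed, H2-DMb2 (log2 change -1.57, edgeR adjusted p = 0.0488) and H2-Ob (-1.67, edgeR adjusted p = 0.0378), both B-cell-like in their pattern above. Leaving out any single library other than YAP3d replicate 2 left 0 called, and without YAP3d replicate 2 there were 4.

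The cells that held a library's class II UMIs (Cd74, H2-Aa, H2-Ab1 and H2-Eb1 summed) shifted without passing a test. Conventional dendritic-like cells held 47.3% ± 7.03 (SD, n = 2) in WT and 54.8% ± 11.1 (SD, n = 3) in YAP7d (exact two-sided permutation p = 0.4). B-cell-like cells held 28.1% ± 5.88 in WT and 10.3% ± 8.35 in YAP7d (exact permutation p = 0.2), and macrophage-like cells 17.8% ± 2.86 and 25.6% ± 3.12 (exact permutation p = 0.2), with no overlap in either case. Monocyte-like cells held 1.47% ± 1.83 in WT and 4.87% ± 1.08 in YAP7d (exact permutation p = 0.1) and endothelial-like cells 1.54% ± 0.424 and 0.318% ± 0.285 (exact permutation p = 0.1), also with no overlap. The smallest p these group sizes allow is 0.1, and adjusted over 7 classes the values were 0.35 to 0.4 for these 5. Under the finer clustering the difference of monocyte-like cells changed sign, to -0.721 percentage points. Endothelial-like cells were 53.0% and 35.5% of cells in WT and 3.49% to 4.99% in YAP7d. The Kupffer-marked cluster made up 5.57% and 4.03% of cells in WT and 15.7%, 30.8% and 7.85% in YAP7d, yet held 5.99% and 8.61% of class II UMIs in WT and 1.26%, 4.16% and 1.42% in YAP7d. The other macrophage-like cluster held 13.8% and 7.18% in WT, from 5 and 17 cells, and 24.4%, 24.6% and 21.1% in YAP7d.

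**Figure D5:**
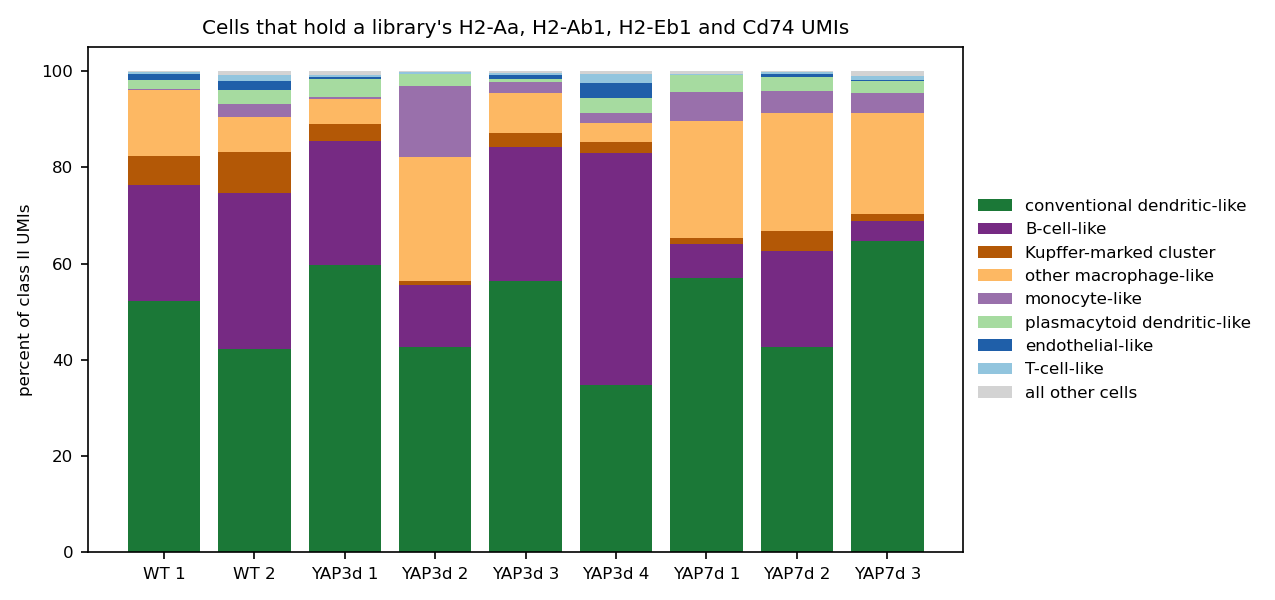
Percent of a library's summed Cd74, H2-Aa, H2-Ab1 and H2-Eb1 UMIs held by each cell class, 1 stacked bar per library. The Kupffer-marked cluster holds 5.99% and 8.61% in WT and 1.26% to 4.16% in YAP7d.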

How the data were processed

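The authors aligned reads to mm10 and counted UMIs with Cell Ranger, and used Seurat 2, per the submitters' processing notes. The deposited table holds whole-number counts of UMIs per gene and cell, with the library in the cell's name, and 0 columns went unmapped. The 10 genes, the pathway lists and the marker lists were chosen with earlier results of these data known, and the 10 genes were reported in every class whatever their change. Cells were scaled to 10000 UMIs and clustered on 2430 variable genes with 30 principal components and 15 neighbours (scanpy 1.11.5, Leiden resolution 1). Doublets called by Scrublet (60 cells, 0.704%) were kept, as were 354 cells over 10% mitochondrial UMIs.

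Counts were summed per library and class with at least 10 cells, filtered by edgeR's filterByExpr, scaled by TMM and tested in 1 quasi-likelihood fit over 3 groups per class (edgeR 4.0.16, R 4.3.3), with Benjamini-Hochberg adjustment over all genes tested and a threshold of 0.05. Differences between classes used limma 3.58.1 (prior count 2) and DESeq2 1.42.0 was an alternative. Pathway genes were named where they passed the test, except for a result that is not reported here. Scripts were tested on simulated data. Library totals ran from 1314878 to 25056881 UMIs, and shares of cells cover counting error only. RefSeq (GRCm38.p6) gave coordinates and promoters, and the genome of another build supplied here was not used. Alternatives covered normalization, low-count and cell filters, doublets, clustering resolution, thinning to 1000 UMIs, each library left out, a replicate block, a Gm10709 term and the compared groups alone.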

Additional observations from a re-analysis of the deposited data

Results flagged for a closer look

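Among 42 groups of 4 libraries examined, 2 had a library far from the rest, and chance sets apart about 1 in 20 groups. H2-Aa in conventional dendritic-like cells of YAP3d stood at 10321 CPM in replicate 2, above a nearest value of 9412 CPM and a lowest of 9229 CPM. Cd74 over all cells of YAP3d stood at 9132 CPM in replicate 4, above a nearest value of 6463 CPM and a lowest of 6141 CPM. That library also had the most Cd74 in T-cell-like cells.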

How the results depend on the processing

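The share of all genes called under each alternative setting is not given in this section. Leaving out 1 library at a time gave these ranges of members called. In macrophage-like cells it was 4 to 6 between YAP7d and WT and 2 to 5 between YAP7d and YAP3d. In the Kupffer-marked cluster it was 4 to 6 between YAP7d and WT and 0 to 4 between YAP7d and YAP3d, and in the other macrophage-like cluster 0 to 1 for the latter. In endothelial-like cells it was 0 to 2, in NK or innate lymphoid-like cells 0 to 3 and over all cells 0 to 4 for the same comparison, and over all cells 0 to 2 between YAP7d and WT.

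The Gm10709 term left 0 called in macrophage-like cells and in the Kupffer-marked cluster for both comparisons of YAP7d, and 0 over all cells between YAP7d and YAP3d. For macrophage-like cells between YAP7d and WT, clustering resolution 2, thinning and at least 20 cells each gave 4. Between YAP7d and YAP3d, the compared groups alone gave 2, clustering resolution 2 gave 1 and at least 20 cells gave 2. For the Kupffer-marked cluster between YAP7d and YAP3d, the cell filter and at least 20 cells each gave 0, and at 3 days against WT no filter on low counts gave 2. In the other macrophage-like cluster DESeq2 gave 5, no filter 6 and thinning 3, and in NK or innate lymphoid-like cells no filter gave 1 between YAP7d and YAP3d. Over all cells, DESeq2 gave 2, the compared groups alone 2 and thinning 1 between YAP7d and WT, and between YAP7d and YAP3d these were 1 with RLE size factors, 0 with the compared groups alone, 1 with the cell filter and 0 with thinning.

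Whether replicate numbers pair the libraries was not settled. Correlations of same-numbered libraries, after centring within groups, ran from -0.43 to 0.32. Centring makes the WT libraries mirror images of each other, and no range of differently numbered libraries is given, so these values cannot decide it. With the replicate block, 6 members were called in the Kupffer-marked cluster between YAP7d and WT, with H2-DMa (edgeR adjusted p = 0.0353) and H2-DMb1 (0.0483) among them. Between YAP3d and WT it gave 4 in that cluster, among them H2-Ab1 (log2 change -2.47, edgeR adjusted p = 0.000368) and Cd74 (-2.25, 0.00809), 1 in endothelial-like cells and 1 in T-cell-like cells. With that block there were 3 in endothelial-like cells between YAP7d and YAP3d, and over all cells 3 between YAP7d and WT and 0 between YAP7d and YAP3d, and H2-DMb1 in conventional dendritic-like cells changed sign to 0.023. H2-DMb2 changed sign under the block in macrophage-like cells (-1.11 between YAP3d and WT, 0.021 between YAP7d and YAP3d) and in the Kupffer-marked cluster between YAP3d and WT (-1.41), and H2-DMb1 in macrophage-like cells between YAP7d and WT no longer passed (edgeR adjusted p = 0.0582).

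Log2 changes that did not pass also changed sign, and the cause was not tested. With the Gm10709 term H2-DMb2 turned to 2.20 between YAP7d and WT and 1.001 between YAP7d and YAP3d in macrophage-like cells, and to 1.90 and 0.91 in the Kupffer-marked cluster. Leaving out single libraries, its change in macrophage-like cells spanned -1.10 to 7.44 between YAP7d and WT, -0.74 to 8.27 between YAP3d and WT and -1.55 to 0.31 between YAP7d and YAP3d, and in the Kupffer-marked cluster -1.11 to 6.05 and -0.055 to 7.13 against WT. The high ends against WT are those without WT replicate 2, which leave WT at 0 H2-DMb2 UMIs, so they are no measure of size. The 0.31 between YAP7d and YAP3d came without YAP3d replicate 4. The smaller sign changes with the Gm10709 term were H2-DMa in the Kupffer-marked cluster between YAP7d and YAP3d (0.065), H2-Aa (0.12) and H2-Ob (0.12) in B-cell-like cells, and H2-Eb1 (0.021) and H2-DMb2 (0.45) in conventional dendritic-like cells. Thinning gave 0.12 for H2-Aa and 0.11 for H2-Oa in B-cell-like cells, and 0.084 for H2-Aa and 0.39 for H2-DMa in conventional dendritic-like cells. No filter gave -0.0045 for H2-DMa in B-cell-like cells and 0.010 for H2-Eb1 and 0.013 for H2-DMb1 in conventional dendritic-like cells. Leaving out single libraries spanned -0.021 to 0.11 for H2-DMa and -0.24 to 0.051 for H2-Oa in B-cell-like cells, and -0.29 to 0.036 for H2-Aa and -0.29 to 0.16 for H2-Eb1 in conventional dendritic-like cells. The difference in share of class II UMIs between YAP3d and WT spanned -6.02 to 5.78 percentage points for B-cell-like and -2.76 to 5.60 for conventional dendritic-like cells, and with Cd74 alone it was -0.054 for B-cell-like cells. For monocyte-like cells it was -0.721 between YAP7d and WT at clustering resolution 2, and between YAP7d and YAP3d 0.0996 with Cd74 alone and -1.44 to 3.28 without single libraries. Kupffer-marked cells were few in WT (29 and 57) and in YAP3d replicates 1 and 3 (11 and 24), and Ciita counts were low. This may limit what could be detected, which was not tested.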

Other observations

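Over 79 sums of a class in a library (12 classes, 8204 genes), the genes most like the mean log2 CPM of H2-Aa, H2-Ab1, H2-Eb1 and Cd74 were Fgd2 (Pearson r = 0.929), Pkib (0.907), Ly86 (0.885), Cd180 (0.879), Gm6377 (0.874) and Irf5 (0.870). Of the other members H2-DMa had 0.950, H2-DMb1 0.917, Ciita 0.874, H2-DMb2 0.794, H2-Oa 0.771 and H2-Ob 0.735. These sums share libraries, depth and cell classes, so the values describe likeness of pattern across classes and are given without a test.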
